A study of Mus musculus with 17 samples.

Results

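Epithelial antimicrobial and acute-phase genes were described in the mouse colon. The group holds 10 genes (Reg3b, Reg3g, Retnlb, Ang4, Lcn2, Saa1, Saa2, Saa3, Nos2 and Duoxa2), out of 25029 gene or transcript names with a tested probe. They were taken by name from the array annotation, as products by which the gut lining meets microbes and inflammation, and each was read by the probe with the highest mean in the authors' table of log2 values. Colon RNA from males of the C57Bl6/J background was hybridised to 17 arrays. WT CONT (n = 4) and WT PCN (n = 4) were wild-type mice, Pxr-/- CONT (n = 5) and Pxr-/- PCN (n = 4) lacked PXR, the pregnane X receptor, in the whole animal. PCN, pregnenolone 16α-carbonitrile, is a ligand of rodent PXR. It was injected into the peritoneum at 100 mg/kg each day for 4 days in corn oil, which all CONT mice received alone, and all mice were killed in the fed state at ZT6, 6 h after the last injection. WT mice were bought at 6 weeks of age and kept for 2 weeks, whereas Pxr-/- mice came from the laboratory's own colony and their age was not given in the sources used here. A difference between the genotypes and a difference between the colonies, their microbes included, therefore cannot be told apart.

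The colon is lined by a single epithelial layer that faces a dense microbial community across mucus. Goblet cells, the mucus makers, secrete resistin-like molecule beta (Retnlb), and crypt cells secrete angiogenin-4 (Ang4). Enterocytes make the C-type lectins Reg3b and Reg3g, which bind bacteria, and raise them when bacteria or interleukin 22 reach the epithelium. Lipocalin-2 (Lcn2) withholds iron by binding bacterial siderophores and is also stored in neutrophils. The serum amyloid A proteins (Saa1, Saa2 and Saa3) are acute-phase proteins that the liver and, at local sites, the epithelium and macrophages produce. Nos2, the inducible nitric oxide synthase, makes nitric oxide, and Duoxa2 is the maturation factor that the hydrogen peroxide producing oxidase Duox2 needs to reach the cell surface.

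All values below are log2 of the quantile-normalized median spot intensity, so a difference of 1 is a doubling. In the linear model fitted to all probes (limma), a gene was called at a Benjamini-Hochberg adjusted p of at most 0.05 and a fold over 1.5. Goblet cell genes had a mean of 16.77 to 17.48 and colonocyte genes of 14.87 to 15.62 on every array, as the tissue label gives. Arrays under different labels were nearly the same in 2 cases: over all probes the SD of the log2 differences was 0.172 between Pxr-/- PCN replicate 2 and WT PCN replicate 4, and 0.198 between Pxr-/- CONT replicate 2 and WT PCN replicate 3, against 0.297 in the next closest pair. The 10 genes themselves differed by at most 0.11 and 0.079 within these pairs. Counts of genes called are therefore given with all arrays and without these 4, and fitted differences where stated. Marker lists, gene lists and most wash bath differences are given with all arrays only. Transcripts of the pancreas stood at a mean of 10.86 to 17.54 in Pxr-/- CONT replicate 2, replicate 4 of WT CONT and replicates 1 and 3 of WT PCN (6.04 to 6.43 elsewhere), and those of the liver at 8.67 to 11.18 in replicates 1 and 2 of WT PCN and replicate 5 of WT CONT (6.59 to 7.38 elsewhere). Markers of the distal colon (Hoxb13, Hoxd13, Hoxd12, Hoxd11 and Hoxa13) ranged from a mean of 6.35 to 10.44, and Hoxb13 was at 7.53 in Pxr-/- PCN replicate 4 against 12.88 or more on all others. In whole tissue, a lower signal from fewer cells of a type and from less RNA per cell cannot be told apart.

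**Figure D1:**
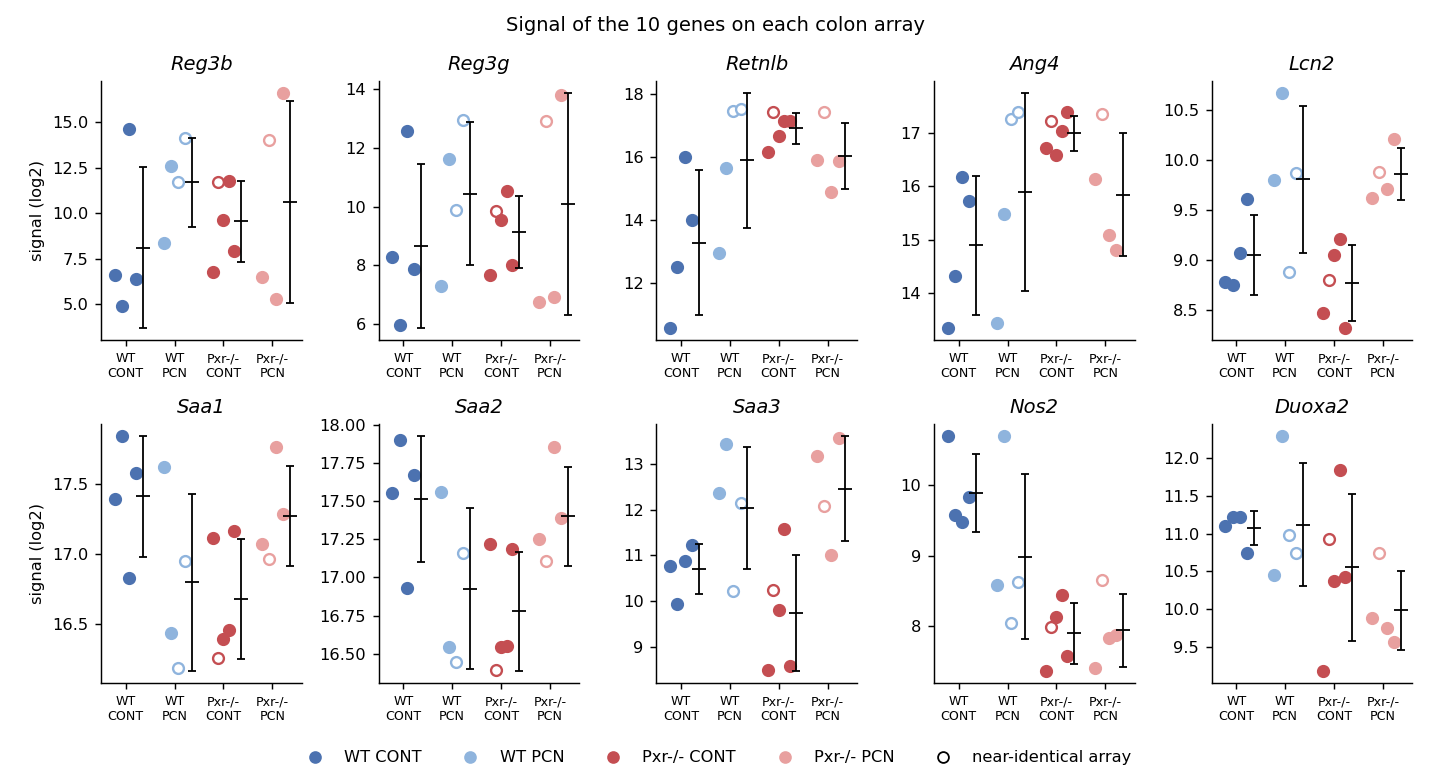
Signal (log2) of each gene on every array, by group. Points are arrays, open points the 4 near-identical arrays, and the bar beside each group is its mean with the SD. The Pxr-/- CONT points lie above all WT CONT points for Retnlb and Ang4 and below them for Nos2, whereas Reg3b and Reg3g spread over several log2 units in every group.

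Of the 10 genes, Reg3b and Reg3g varied most from array to array. Reg3b was at 6.58, 4.88, 14.62 and 6.37 in WT CONT replicates 2 to 5. It was at 8.36, 12.60, 11.68 and 14.13 in WT PCN replicates 1 to 4, at 6.78, 11.70, 9.61, 11.74 and 7.90 in Pxr-/- CONT replicates 1 to 5, and at 6.51, 14.03, 5.31 and 16.60 in Pxr-/- PCN replicates 1 to 4. The range over all arrays was 11.72, the spread was larger than that of 99.95% of the probes tested, and the signal was not well above the background in WT CONT replicate 3 and Pxr-/- PCN replicate 3. All groups overlapped. Reg3g followed on the same arrays, at 8.27, 5.96, 12.57 and 7.89 in WT CONT, 7.31, 11.61, 9.88 and 12.95 in WT PCN, 7.68, 9.86, 9.54, 10.52 and 8.03 in Pxr-/- CONT, and 6.75, 12.89, 6.94 and 13.80 in Pxr-/- PCN. Pxr-/- PCN replicate 4 was the highest array and WT CONT replicate 3 the lowest for both lectins. Over the 13 arrays outside the near-identical pairs, Reg3b and Reg3g had Pearson's r = 0.975 and Spearman's rho = 0.890 (permutation p = 1e-05, the smallest that 100000 permutations give, and 0.00015; adjusted over 45 pairs of genes 0.000225 and 0.00169). Without the 2 arrays farthest from the median of Reg3b, r was 0.936, and with the group means taken out it was 0.980.

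Reg3b and Reg3g lie on chromosome 6. Their probes are at chr6:78323323-78323382 on the plus strand and chr6:78416420-78416479 on the minus strand of mm9, the build of the array annotation, and their best local alignment scored 6 of a possible 60, at 1 for each identical base. Whether each probe also reads RNA of the other gene was not tested. The 250 bases upstream of the start sites are printed because the genes move together. They come from RefSeq (GRCm38.p6), for Reg3b chr6:78370635-78370884 on the plus strand and for Reg3g chr6:78468875-78469124 on the minus strand. Capitals mark matches to TATAAA, the letters of a TATA box, and to TTCNNNGAA, letters that STAT factors are known to bind, searched on both strands.
Reg3b: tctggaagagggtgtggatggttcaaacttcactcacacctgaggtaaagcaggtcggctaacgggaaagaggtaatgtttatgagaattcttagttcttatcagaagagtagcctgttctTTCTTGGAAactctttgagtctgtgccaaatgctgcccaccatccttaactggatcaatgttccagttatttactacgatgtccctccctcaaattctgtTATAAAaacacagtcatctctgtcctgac
Reg3g: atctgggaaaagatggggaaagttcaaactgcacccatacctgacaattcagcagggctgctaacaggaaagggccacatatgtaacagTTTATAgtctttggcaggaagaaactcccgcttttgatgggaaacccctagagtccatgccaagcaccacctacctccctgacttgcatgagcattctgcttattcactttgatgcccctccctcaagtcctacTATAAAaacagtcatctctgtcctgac
The aligned sequences were identical at 68.4% of positions (173 of 253 columns), against 41.4% to 53.2% for other pairs of these genes apart from Saa1 and Saa2. TATAAA was found at -29 to -24 in Reg3b and at -27 to -22 in Reg3g, counted from the start site, and once more on the other strand of Reg3g at -161 to -156. It is held by 12.4% of 32851 mouse promoter windows of this length. TTCNNNGAA, which 7.02% of windows hold, was found in Reg3b at -129 to -121 and not in the Reg3g window. A match is a stretch of letters and not a shown binding site.

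Both lectins were lower on arrays with higher markers of the distal colon. On the 8 arrays highest in these markers (mean 9.11 to 10.44), Reg3b was at 4.88 to 8.36 and Reg3g at 5.96 to 8.27. On the other 9 arrays (mean 6.35 to 8.52) Reg3b was at 9.61 to 16.60 and Reg3g at 9.54 to 13.80, with no overlap between these sets. The 9 arrays include all 4 near-identical ones. This split was made after the values were seen, and it depends on where it is placed. With the 5 arrays highest in the markers set against the other 12, both genes overlapped, Reg3b reaching 8.36 on the 5 against a lowest of 6.51 on the others and Reg3g 8.03 against 6.75. The part of the colon segment in the results was not tested. The 8 arrays were WT CONT replicates 2, 3 and 5, WT PCN replicate 1, Pxr-/- CONT replicates 1 and 5 and Pxr-/- PCN replicates 1 and 3. On the 4 arrays with pancreatic transcripts Reg3b was at 14.62, 8.36, 11.68 and 11.70, and in Pxr-/- PCN replicate 4, where the pancreatic list had a mean of 6.11, at 16.60. The part of pancreatic tissue in the result was not tested. Markers of the small intestine and Paneth cells had means of 9.25, 9.25 and 9.15 in Pxr-/- PCN replicates 4 and 2 and WT PCN replicate 4. The last 2 of these arrays are near-identical. Elsewhere the mean was 7.53 to 8.34. Reg3g was also highest on these arrays, whereas WT CONT replicate 4, with Reg3b at 14.62, had a mean of 7.97. The part of small intestinal tissue was not tested.

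Retnlb and Ang4, secreted products of goblet and crypt cells, stood higher on all Pxr-/- CONT arrays than on any array of WT CONT. Retnlb was at 10.60, 12.51, 16.01 and 14.01 in WT CONT replicates 2 to 5 and at 16.17, 17.41, 16.67, 17.14 and 17.14 in Pxr-/- CONT replicates 1 to 5. The difference was 3.62 (12.3-fold, standard error 1.02, adjusted p = 0.240 from limma) and did not pass the test. It was 2.70 without WT CONT replicate 2 and 4.65 without WT CONT replicate 4. Leaving out the near-identical arrays, it was 3.498 (standard error 0.94, adjusted p = 0.249 from limma). The WT CONT arrays were far more variable (SD 2.29, n = 4) than the Pxr-/- CONT arrays (SD 0.49, n = 5). In wash bath 1 the genotypes differed by 5.35 and in wash bath 2 by 1.90, with 2 or 3 arrays a group in each bath.

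Ang4 was at 13.35, 14.32, 16.18 and 15.73 in WT CONT and at 16.73, 17.22, 16.60, 17.03 and 17.39 in Pxr-/- CONT. The difference was 2.12 (4.33-fold, standard error 0.78, adjusted p = 0.317 from limma), and 2.04 without the near-identical arrays (adjusted p = 0.293). Again no WT CONT array reached the lowest Pxr-/- CONT array. Within the baths the differences were 2.98 and 1.16. With the slide as a fixed block Ang4 differed by 0.98 and Retnlb by 2.72, the lowest of all alternatives for Ang4. The Ang4 probe (chr14:52384066-52384125 of mm9, minus strand) belongs to a family of close copies. Ang6 (r = 0.999) and Ang3 (r = 0.997) were the genes outside the 10 most like Ang4 over 13 arrays among 21064 searched, and whether the probe also reads RNA of these copies was not tested.

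Beside Retnlb and Ang4, the 8 goblet cell markers had a mean of 17.33 to 17.45 in Pxr-/- CONT and of 16.83 to 17.30 in WT CONT, with no overlap, whereas their summed signal overlapped (20.58 to 20.70 in Pxr-/- CONT and 20.35 to 20.60 in WT CONT). Their part in the result was not tested. Muc2, the main gel-forming mucin, was at 17.82 to 18.27 in WT CONT and 18.08 to 18.37 in Pxr-/- CONT. On the arrays high in distal colon markers, Retnlb was at 10.60 to 14.01 in WT CONT (3 arrays) and 16.17 and 17.14 in Pxr-/- CONT (2 arrays). On the others it was at 16.01 in WT CONT (1 array) and 16.67 to 17.41 in Pxr-/- CONT (3 arrays). The part of the colon segment in the difference was not tested.

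Under PCN, the same genes showed no common direction. In WT PCN replicates 1 to 4, Retnlb was at 12.95, 15.65, 17.45 and 17.51 and Ang4 at 13.44, 15.49, 17.26 and 17.40. The 2 highest values of each gene came from replicates 3 and 4, which are near-identical to Pxr-/- arrays. Retnlb differed from WT CONT by 2.63 (standard error 1.09, adjusted p = 0.956 from limma) with all arrays and by 1.02 without these arrays (standard error 1.15, adjusted p = 1), and Ang4 by 0.96 and -0.43. In Pxr-/- PCN, Retnlb was at 15.90, 17.43, 14.89 and 15.88 and Ang4 at 16.13, 17.36, 15.09 and 14.81, against Pxr-/- CONT differences of -0.88 (adjusted p = 0.910) and -1.16 (adjusted p = 0.809). Without the near-identical arrays these were -1.36 (adjusted p = 0.864) and -1.67 (adjusted p = 0.631), and no Pxr-/- PCN array reached a Pxr-/- CONT array for either gene.

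Nos2 was lower in Pxr-/- CONT than in WT CONT and had the smallest adjusted p of the 10 genes in that comparison. It was at 10.69, 9.58, 9.47 and 9.83 in WT CONT and at 7.37, 7.99, 8.14, 8.44 and 7.58 in Pxr-/- CONT. The groups did not overlap, and every Pxr-/- CONT array was below 9.47, the lowest of WT CONT. The difference was -1.93 (standard error 0.41, adjusted p = 0.184 from limma), a fold of 3.81, and -2.01 (standard error 0.32, adjusted p = 0.107) without the near-identical arrays. It was alike in both wash baths (-1.84 and -2.004) and with the slide as a fixed block (-2.16). None of these adjusted p passed the test.

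In WT PCN, Nos2 was at 8.58, 10.69, 8.05 and 8.63, and in Pxr-/- PCN at 7.42, 8.65, 7.84 and 7.87. WT PCN replicate 1, at 8.58, lay below the lowest WT CONT array (9.47) and below the highest Pxr-/- array (8.65, Pxr-/- PCN replicate 2). WT PCN replicates 3 and 4 lay among the Pxr-/- arrays, as their near-identical partners did. Without these pairs, Nos2 was lower in Pxr-/- PCN than in WT PCN by 1.80 (adjusted p = 0.404 from limma) with no overlap between 3 and 2 arrays, against 0.90 with all arrays (adjusted p = 0.9998), where the groups overlapped. With only WT PCN replicate 2 left out, the array at 10.69, the difference was -0.40. PCN made a difference of -0.02 in Pxr-/- (adjusted p = 0.996) and of -1.05 in WT (adjusted p = 0.956), which was -0.25 without the near-identical arrays.

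Duoxa2, which lies between Duox2 and Duoxa1 on chromosome 2, varied less between the control groups. It was at 11.10, 11.22, 11.23 and 10.75 in WT CONT and at 9.18, 10.93, 10.38, 11.85 and 10.43 in Pxr-/- CONT (difference -0.46, standard error 0.40, adjusted p = 0.646 from limma). Without the near-identical arrays the difference was -0.62. The groups overlapped, with Pxr-/- CONT replicates 2 and 4 above the lowest WT CONT array and replicate 4 the second highest of all arrays. In WT PCN it was at 10.46, 12.30, 10.98 and 10.74, and in Pxr-/- PCN at 9.88, 10.75, 9.75 and 9.57. Pxr-/- PCN was lower than WT PCN by 0.98 (standard error 0.43, adjusted p = 0.9998) with all arrays and by 1.52 (adjusted p = 0.567, no overlap) without the near-identical ones. Nos2 and Duoxa2 had r = 0.768 and rho = 0.802 over 13 arrays (permutation p = 0.00228 and 0.00152, adjusted over 45 pairs 0.0205 and 0.0137). Without the 2 arrays farthest from the median of Nos2, r was 0.695, and with the group means taken out it was 0.690.

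Saa1 and Saa2 were lower in Pxr-/- CONT than in WT CONT by less than 1 log2 unit. Saa1 was at 17.39, 17.84, 16.83 and 17.58 in WT CONT and at 17.11, 16.26, 16.39, 16.45 and 17.16 in Pxr-/- CONT. Saa2 was at 17.55, 17.90, 16.93 and 17.67 in WT CONT and at 17.22, 16.39, 16.55, 16.55 and 17.18 in Pxr-/- CONT. The groups overlapped through WT CONT replicate 4, which lay below Pxr-/- CONT replicates 1 and 5. The differences were -0.75 for Saa1 (standard error 0.29, adjusted p = 0.336 from limma) and -0.75 for Saa2 (standard error 0.26, adjusted p = 0.300), and -0.63 and -0.64 without the near-identical arrays. In the wash baths Saa1 differed by -1.19 and -0.36, and without the near-identical array of wash bath 2 by -0.063 there.

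These genes lie side by side on chromosome 7 and were the most alike of all pairs of the 10 genes, with r = 0.993 and rho = 0.967 over 13 arrays (permutation p = 1e-05 for each, adjusted over 45 pairs 0.000225 and 0.00045). Without the 2 arrays farthest from the median of Saa1, r was 0.988, and with the group means taken out it was 0.996. Their upstream sequences are printed for that reason, Saa1 at chr7:46742981-46743230 on the minus strand and Saa2 at chr7:46751583-46751832 on the plus strand (RefSeq, GRCm38.p6). Capitals mark matches to TTGCNNAA, letters that C/EBP factors are known to bind, searched on both strands.
Saa1: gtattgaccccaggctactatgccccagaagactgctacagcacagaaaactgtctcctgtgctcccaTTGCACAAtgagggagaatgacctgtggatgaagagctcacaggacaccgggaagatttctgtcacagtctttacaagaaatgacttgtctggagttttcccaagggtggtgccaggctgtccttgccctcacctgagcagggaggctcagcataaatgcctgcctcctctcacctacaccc
Saa2: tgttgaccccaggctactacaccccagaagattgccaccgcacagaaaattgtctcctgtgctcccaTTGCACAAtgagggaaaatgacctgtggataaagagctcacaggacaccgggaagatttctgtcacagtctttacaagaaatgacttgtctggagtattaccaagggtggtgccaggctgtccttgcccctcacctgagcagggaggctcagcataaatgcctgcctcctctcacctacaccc
The aligned sequences were identical at 94.8% of positions (238 of 251 columns). The same 8 letters, TTGCACAA, stood at -182 to -175 in Saa1 and at -183 to -176 in Saa2. TTGCNNAA is held by 9.56% of windows of this length. The best local alignment of their probes scored 5 of a possible 60, and whether each also reads RNA of the other gene was not tested.

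Saa1 was at higher values where the distal colon markers were higher, opposite to Reg3b. On the 8 arrays highest in these markers Saa1 was at 17.07 to 17.84 and on the other 9 at 16.19 to 17.28, so the sets overlapped. WT CONT held 3 of its 4 arrays among the 8, and Pxr-/- CONT 2 of its 5. In the high set Saa1 was at 17.39 to 17.84 in WT CONT and 17.11 and 17.16 in Pxr-/- CONT, and in the other set at 16.83 in WT CONT and 16.26 to 16.45 in Pxr-/- CONT, a single WT CONT array in that set. The part of the segment in the difference was not tested. Reg3b and Saa1 had r = -0.564 and rho = -0.654 over 13 arrays (permutation p = 0.0455 and 0.0188, adjusted over 45 pairs 0.146 and 0.0845). Reg3b and Saa2 had r = -0.581 and rho = -0.725 (permutation p = 0.0379 and 0.00713, adjusted over 45 pairs 0.134 and 0.0495). The liver markers, which touch these hepatic acute-phase genes, were highest in WT CONT replicate 5, where Saa1 was at 17.58. Without the 3 arrays high in liver transcripts Saa1 and Saa2 each differed by -0.66.

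**Figure D2:**
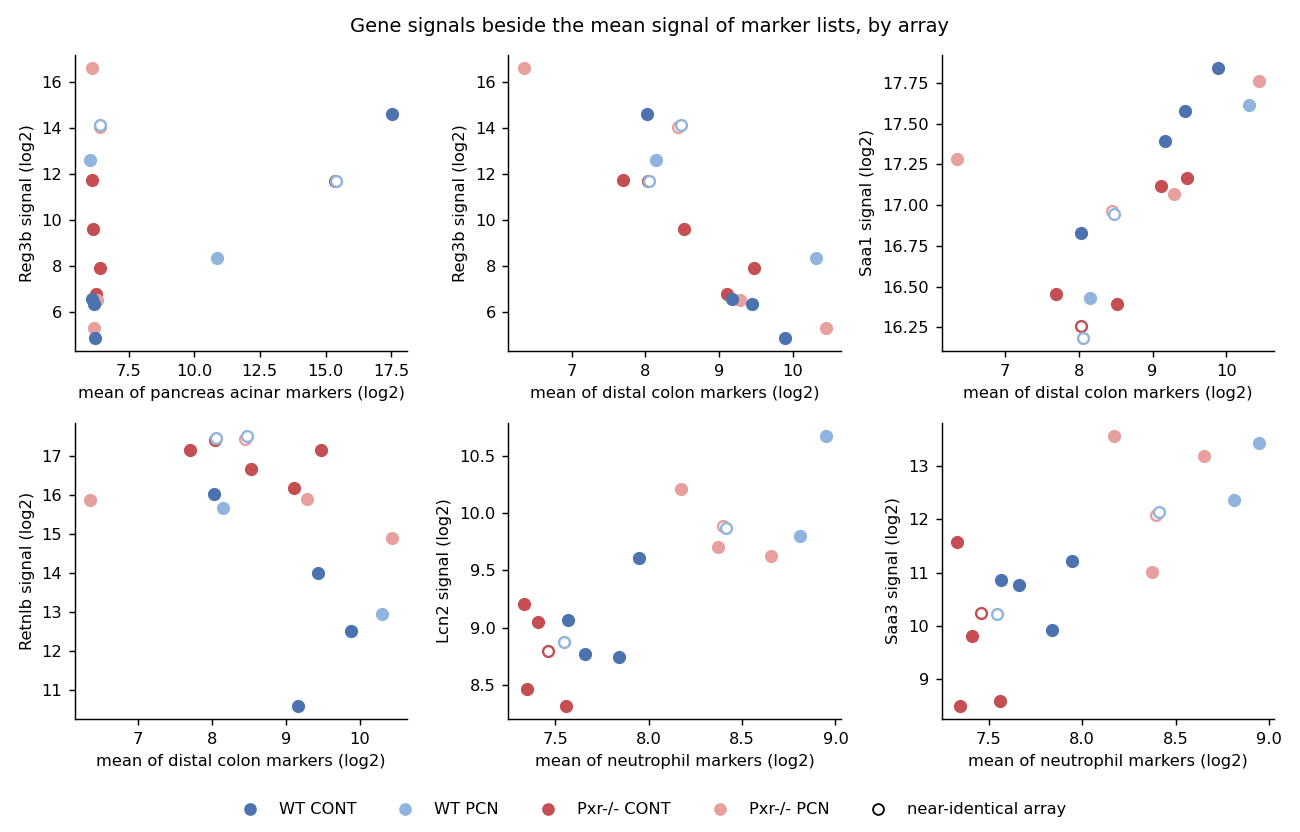
Signal (log2) of Reg3b, Saa1, Retnlb, Lcn2 and Saa3 on each array against the mean signal (log2) of a list of marker genes on the same array. Reg3b was at 9.61 or more on the 9 arrays lower in distal colon markers and at 8.36 or less on the other 8. This split was made after the values were seen, and the 9 arrays include all 4 near-identical ones. With the 5 arrays highest in the markers set against the others, Reg3b overlapped. The 7 arrays with a neutrophil mean of 8.17 or more held the 7 highest Lcn2 values.

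Lcn2 and Saa3 had higher means under PCN in both genotypes, without being called in either. Lcn2 was at 8.46, 8.79, 9.05, 9.20 and 8.32 in Pxr-/- CONT and at 9.62, 9.88, 9.71 and 10.21 in Pxr-/- PCN, with no overlap. The difference was 1.09 (2.13-fold, standard error 0.30, adjusted p = 0.414 from limma), and 1.11 without the near-identical arrays (adjusted p = 0.435). The other Lcn2 probe gave 0.95 (adjusted p = 0.400). Within the baths it was 0.67 and 1.39.

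Saa3 was at 8.50, 10.24, 9.81, 11.57 and 8.59 in Pxr-/- CONT and at 13.19, 12.08, 11.02 and 13.57 in Pxr-/- PCN, and overlapped only through Pxr-/- CONT replicate 4. Its difference of 2.75 (6.71-fold, standard error 0.72, adjusted p = 0.399 from limma) was the largest of the 10 genes in this comparison. It was 2.997 without the near-identical arrays (adjusted p = 0.430), 0.86 in wash bath 1 and 4.27 in wash bath 2. Leaving out single arrays kept it between 2.37 and 3.35, the highest without Pxr-/- CONT replicate 4. No setting brought either gene past the test.

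In WT, Lcn2 was at 8.77, 8.74, 9.07 and 9.61 under CONT and at 9.80, 10.67, 8.87 and 9.87 under PCN. Saa3 was at 10.77, 9.93, 10.87 and 11.23 under CONT and at 12.36, 13.44, 10.23 and 12.15 under PCN. For both genes, WT PCN replicate 3 lay within the CONT range, and the other 3 PCN arrays lay above every CONT array. The differences were 0.76 for Lcn2 (standard error 0.32, adjusted p = 0.956 from limma) and 1.41 for Saa3 (standard error 0.76, adjusted p = 0.956), and 1.19 (adjusted p = 0.679) and 2.20 (adjusted p = 1) without the near-identical arrays, where 2 WT PCN arrays remain and neither gene overlapped. WT PCN replicate 3 is near-identical to Pxr-/- CONT replicate 2, in which Lcn2 was at 8.79 and Saa3 at 10.24. WT PCN replicate 4, among the arrays above every CONT array, is near-identical to Pxr-/- PCN replicate 2. In that array Lcn2 was at 9.88 and Saa3 at 12.08.

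The mean of the neutrophil markers moved with Lcn2 and Saa3, but not every marker did. The mean of the 12 markers was 7.33 to 7.56 in Pxr-/- CONT and 8.17 to 8.65 in Pxr-/- PCN, and in WT 7.57 to 7.95 under CONT and 7.54 to 8.95 under PCN, the lowest again in replicate 3. On the scale of summed signal the ranges were 15.71 to 15.80 in Pxr-/- CONT, 15.83 to 15.94 in Pxr-/- PCN, 15.72 to 15.98 in WT CONT and 15.75 to 16.31 in WT PCN. S100a8, a calcium-binding protein of neutrophils, was at 5.73 to 7.08 in Pxr-/- CONT and 9.66 to 10.53 in Pxr-/- PCN. Of 11 neutrophil markers tested, 6 were higher and 1 was lower in Pxr-/- PCN at an unadjusted p under 0.05 (7.35% of all probes), with 0 called by limma and a lowest adjusted p of 0.0596. The 6 granule markers went different ways. Ltf was at 4.95 to 5.58 in Pxr-/- CONT and 5.81 to 6.60 in Pxr-/- PCN and Mmp8 at 5.35 to 5.77 and 5.92 to 6.41, whereas Camp was at 6.64 to 7.06 and 6.14 to 6.37. Elane stayed between 7.61 and 8.02 on all arrays, Mpo was well above the background on 7 arrays and Ngp on 1. The part of neutrophils in the result was not tested. Over 13 arrays Lcn2 and Saa3 had r = 0.902 and rho = 0.923 (permutation p = 6e-05 and 5e-05, adjusted over 45 pairs 0.000675 and 0.00075). Without the 2 arrays farthest from the median of Lcn2, r was 0.856, and with the group means taken out it was 0.727.

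Neither gene was called between the control groups. Lcn2 was lower in Pxr-/- CONT by 0.28 (standard error 0.30, adjusted p = 0.710 from limma) and Saa3 by 0.98 (standard error 0.72, adjusted p = 0.576), and the groups overlapped for both. Without Pxr-/- CONT replicate 4 Saa3 differed by -1.58. The sign depended on the bath, with Saa3 at 0.34 in wash bath 1 and -1.94 in wash bath 2.

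Over all 10 genes, the control comparison went both ways, with 4 higher and 6 lower in Pxr-/- CONT and a median difference of -0.37, against 0.0083 over all probes tested. limma called 0 of the 10 genes, as of all 38703 probes (0%), with all arrays and without the near-identical ones. At an unadjusted p under 0.05 stood 5 of the 10, Retnlb and Ang4 higher and Nos2, Saa1 and Saa2 lower, where 12.7% of all probes were past that level. In the fit without near-identical arrays these were 4 of the 10 (10.1% of all probes), Saa1 no longer among them. Retnlb, Ang4 and Nos2, 3 of the 10, did not overlap between the groups, where 5.39% of all probes did not overlap. The same 3 genes did not overlap without the near-identical arrays (6.73% of all probes). The 10 genes were chosen with earlier results of these data known, and Saa1 and Saa2 move together (r = 0.993), so these counts are a description only. Reg3b and Reg3g differed by 1.41 (standard error 2.42, adjusted p = 0.825) and 0.49 (standard error 1.66, adjusted p = 0.917). Without the near-identical arrays they differed by 0.90 and 0.27. For Reg3b the baths gave 4.94 and -1.70, leaving out WT CONT replicate 4 moved it to 3.84 and WT CONT replicate 3 to 0.34, and the slide as a fixed block to 0.26.

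**Figure D3:**
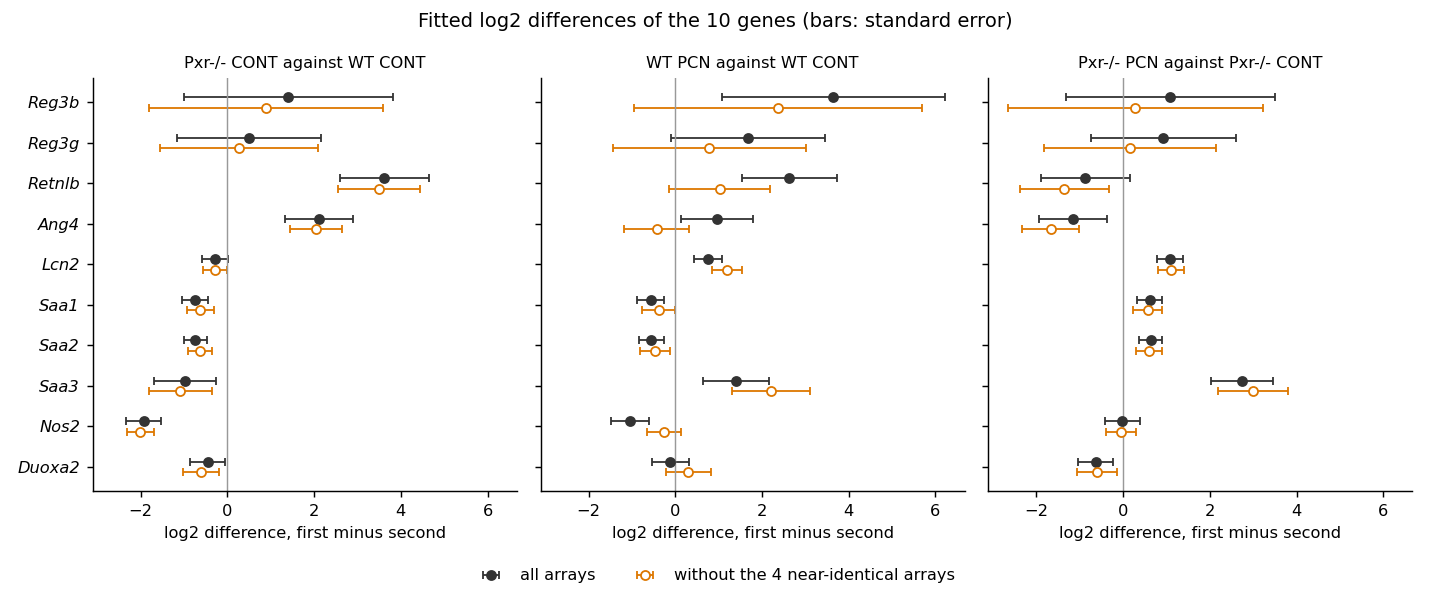
Fitted log2 differences of the 10 genes in 3 comparisons, from limma with all 17 arrays (filled) and without the 4 near-identical arrays (open). Bars are standard errors. The genotypes differ in opposite directions for Retnlb (3.62) and Nos2 (-1.93) under CONT, and the bars of Reg3b and Reg3g cross 0 in most comparisons.

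For PCN in Pxr-/-, limma called 0 of the 10 genes, against 2 of all 38703 probes (0.00517%), and 6 were higher and 4 lower. At an unadjusted p under 0.05, 3 of the 10 stood higher, Lcn2, Saa3 and Saa2 (7.35% of all probes in either direction). Saa2 was at 17.25, 17.11, 17.85 and 17.39 in Pxr-/- PCN (difference 0.63, adjusted p = 0.638) and Saa1 at 17.07, 16.96, 17.76 and 17.28 (0.61, adjusted p = 0.691). Lcn2 was the 1 gene of the 10 without overlap, where 2.8% of all probes did not overlap. Without the near-identical arrays 0 of the 10 were called (0.0517% of all probes), 3 were past the unadjusted level (7.19%), Lcn2 and Saa3 higher and Ang4 lower, and 4 did not overlap, namely Lcn2, Saa2, Retnlb and Ang4 (6.62% of all probes), the last 2 lower under PCN. Reg3b differed by 1.09 (standard error 2.42) and Reg3g by 0.93 (standard error 1.66). Without the near-identical arrays these were 0.28 and 0.16. With only Pxr-/- PCN replicate 4 left out, in which Hoxb13 was lowest, they were -1.15 and -0.56.

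For PCN in WT, limma called 0 of the 10 genes and 0 of all probes (0%), and 6 were higher and 4 lower. At an unadjusted p under 0.05 stood 3 of the 10, Retnlb and Lcn2 higher and Nos2 lower (4.66% of all probes). All 10 overlapped between the groups, where 2.64% of all probes did not. Without the near-identical arrays limma called 19 of all probes (0.0491%), none of them a probe of these genes. Lcn2 and Saa3 were then past the unadjusted level (4.68% of all probes) and did not overlap (11.2% of all probes). Saa1 was at 17.62, 16.43, 16.19 and 16.94 in WT PCN and Saa2 at 17.56, 16.54, 16.45 and 17.16, which is -0.57 and -0.55 against WT CONT (adjusted p = 0.956 for each). Reg3b was higher by 3.65 (standard error 2.58, adjusted p = 0.956), 7.07 in wash bath 1 and -2.13 in wash bath 2. Without the near-identical arrays it was higher by 2.37.

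Between the PCN groups limma called 0 of the 10 genes and 0 of all probes (0%). The differences of Pxr-/- PCN from WT PCN ran from -1.15 to 0.44, and Duoxa2 was the 1 gene at an unadjusted p under 0.05 (3.28% of all probes). All 10 genes overlapped, where 1.48% of all probes did not. Without the near-identical arrays 0 of the 10 were called (0.0207% of all probes), and Nos2 and Duoxa2 were past the unadjusted level (7.56%). Both were lower in Pxr-/- PCN without overlap, but with 3 arrays against 2 groups do not overlap in 19.1% of all probes. The interaction, which asks whether PCN acted differently in the 2 genotypes, called 0 of the 10 genes and 0 of all probes (0%). At an unadjusted p under 0.05 stood 3 of the 10 (5.38% of all probes), at -3.503 for Retnlb (standard error 1.49, adjusted p = 0.848 from limma), 1.18 for Saa1 (standard error 0.43, adjusted p = 0.848) and 1.19 for Saa2 (standard error 0.38, adjusted p = 0.848). Reg3b (-2.56, standard error 3.51), Ang4 (-2.12) and Saa3 (1.34) had larger values than the Saa genes but wider errors. Without the near-identical arrays the 3 values were -2.38, 0.95 and 1.06 (adjusted p = 0.9997 for each), 0 of the 10 were called (0.00258% of all probes) and Saa2 alone was past the unadjusted level (2.95%).

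**Figure D4:**
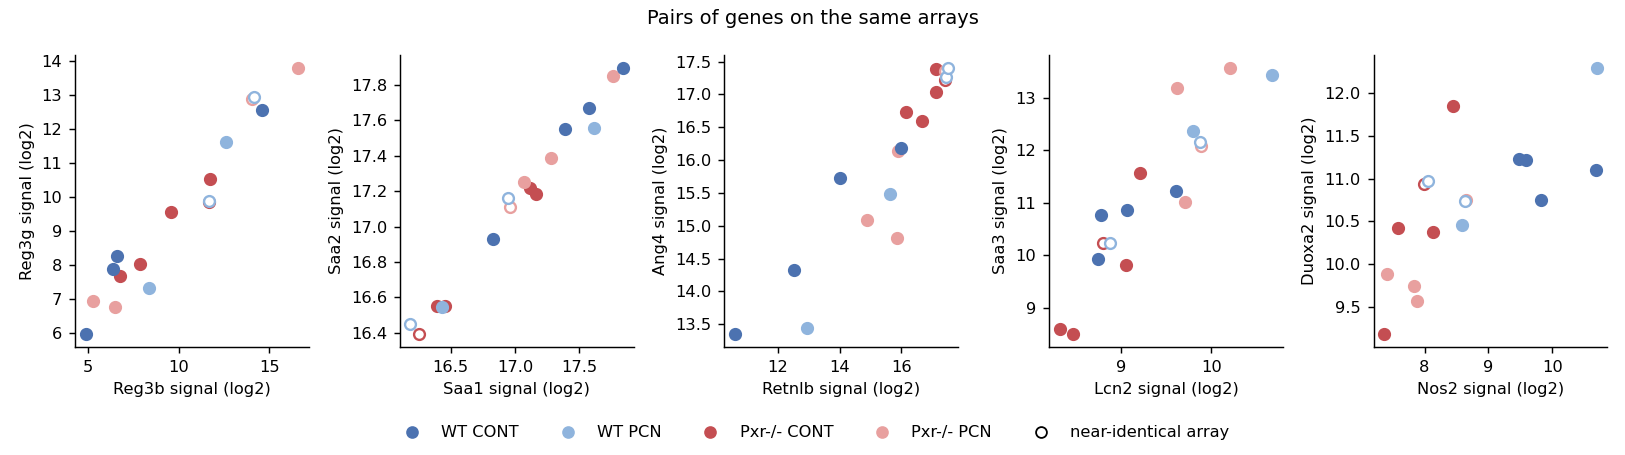
Signals (log2) of 5 pairs of genes on the same arrays, coloured by group, with open points for the 4 near-identical arrays. Reg3b with Reg3g and Saa1 with Saa2 lie close to a line (r = 0.975 and 0.993), Retnlb with Ang4, Lcn2 with Saa3 and Nos2 with Duoxa2 more loosely (r = 0.892, 0.902 and 0.768).

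The 10 genes fell into pairs rather than 1 common pattern. Besides the pairs above, Retnlb and Ang4 had r = 0.892 and rho = 0.940 over 13 arrays (permutation p = 6e-05 and 3e-05, adjusted over 45 pairs 0.000675 for each). Without the 2 arrays farthest from the median of Retnlb, r was 0.856, and with the group means taken out it was 0.911. Retnlb ran against Saa2 (r = -0.663, rho = -0.720, permutation p = 0.0133 and 0.0077, adjusted over 45 pairs 0.09997 and 0.0495). With Saa1 it had r = -0.649 and rho = -0.698 (permutation p = 0.0163 and 0.0106, adjusted over 45 pairs 0.105 and 0.0596). The arrays share their groups, baths and stretches of colon, so these relations are not 45 separate results. The permutations shuffled all 13 arrays across groups and baths, so a group difference that 2 genes share can also give a small permutation p. The genes outside the 10 that were most like each of them were sought among 21064 genes over the same 13 arrays, as a description of likeness. Reg3g was most like Abcc5 (r = 0.969), an efflux transporter, and Aldh1a1 (r = 0.963), a retinaldehyde dehydrogenase. Lcn2 was most like Ifitm7 (r = 0.967) and S100a8 (r = 0.925), and Saa3 like S100a9 (r = 0.894) and Rps6ka4 (r = 0.890). Duoxa2 was most like H2bc14 (r = 0.924) and its neighbour Duox2 (r = 0.889), its partner oxidase. Saa1 and Saa2 shared Cyp2d12 (r = 0.963 and 0.955) and Ceacam18 (r = 0.953 and 0.940), Ier3ip1 was among the genes most like Retnlb (r = 0.908), and Nos2 was most like Pak2 (r = 0.937) and Hsd3b2 (r = 0.930). Reg3b was left out of this search because 2 arrays did not measure it well above the background.

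Other genes of the same defence were read from lists. Among 23 other epithelial defence genes, 10 were higher and 13 lower in Pxr-/- CONT than in WT CONT, with a median of -0.01 and 0 called by limma, and 3 were higher at an unadjusted p under 0.05, a share near the 12.7% of all probes. Itln1, a lectin of goblet cells, was 10.58 ± 1.41 (SD, n = 4) in WT CONT and 14.08 ± 0.63 (SD, n = 5) in Pxr-/- CONT (difference 3.51, adjusted p = 0.253), and the angiogenin copies Ang2 and Ang differed by 2.30 (adjusted p = 0.309) and 1.72 (adjusted p = 0.308). For PCN in Pxr-/- these 3 were at -2.39, -1.23 and -0.89, none called.

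Genes of the interleukin 17 and interleukin 22 pathway, cytokines that drive Reg3, Lcn2 and Duoxa2 in epithelium, were lower in Pxr-/- CONT for 17 of 20 tested (median -0.13, against 0.0083 over all probes, 3 lower at an unadjusted p under 0.05, a share near the 12.7% of all probes, and 0 called). Il18 (-0.88), Socs3 (-0.57) and Il22ra2 (-0.56) differed most. For PCN in Pxr-/-, 17 of 20 were higher (median 0.15, against 0.0062 over all probes, 6 at an unadjusted p under 0.05 where 7.35% of all probes were, and 0 called), with Socs3, a feedback inhibitor of cytokine receptors, at 1.27 (adjusted p = 0.314). Of the type 2 genes, whose cytokines are known to induce Retnlb, 7 of 10 were lower in Pxr-/- CONT (median -0.07, 2 lower at an unadjusted p under 0.05, where 12.7% of all probes were, and 0 called), with Arg1 at -2.01 and Chil3 at -1.45. For PCN in Pxr-/- 7 were higher and 3 lower (median 0.15, 3 higher and 1 lower at an unadjusted p under 0.05, where 7.35% of all probes were, and 0 called), and Arg1 was at 2.71, Chil3 at 3.01 and Il33, an alarm cytokine of the epithelium and stroma, at 1.63 (adjusted p = 0.548, 0.262 and 0.248).

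Microbial sensing genes were divided, 9 higher and 9 lower of 18 in Pxr-/- CONT (median 0.002), with Cd14 (-0.45), Lbp (-0.42) and Tlr3 (0.42) most apart. Acute-phase plasma proteins were lower in Pxr-/- CONT for 13 of 14 tested (median -0.99, 4 lower at an unadjusted p under 0.05, where 12.7% of all probes were, and 0 called), led by Itih4 (-2.38, adjusted p = 0.225), Hp (-2.18, adjusted p = 0.245) and Fgg (-1.67, adjusted p = 0.485). Of the liver markers, 11 of 11 tested were also lower (median -1.66), and adipocyte markers 8 of 9 (median -0.80). The liver value rests largely on WT CONT replicate 5, in which the liver list had a mean of 11.18 against 7.08 to 7.38 on the other WT CONT arrays and 6.64 to 7.17 in Pxr-/- CONT. Fgg, on the acute-phase and the liver list, was at 4.80, 4.98, 4.89 and 10.90 in WT CONT and at 4.62 to 5.16 in Pxr-/- CONT, with the other WT CONT arrays inside the range of Pxr-/- CONT. The part of attached liver or fat in these values was not tested.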

How the data were processed

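Colon RNA was measured on 17 arrays, grouped by the submitters' labels. The authors deposited the scanner output of 1-colour Agilent arrays (Agilent Feature Extraction 10.10.1.1), in which intensity is the median brightness of a spot, not normalized between arrays, an intensity corrected for background by the scanner software, and flags (other) for outlier spots and spots well above background. The authors also deposited log2 values for 36695 probes, corrected for the wash bath and normalized between arrays (CrossNorm, per the methods). CrossNorm could not be repeated from its description, so quantile normalization was used.

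Outlier spots (0.125% to 0.239% of an array) were left out, log2 median intensity was quantile-normalized, and spots of 1 probe were averaged (56605 probes). Probes well above background on at least 4 arrays were tested (38703), between 62.7% and 71.0% of probes were so on an array, and no spot was saturated. The number of arrays limits the precision. A model of group and wash bath was fitted across the 17 arrays (limma 3.58.1, R 4.3.3), with Benjamini-Hochberg adjustment over every probe tested. Replicates are separately labelled arrays, and since near-identical arrays carry different labels, it stays unknown how many mice they represent, and p-values measure the spread between arrays. Each gene had 1 probe except Lcn2 (2). Probes were named through RefSeq accessions where these matched (32994 probes). The fit was tested on simulated data with independent arrays and, for each probe, the same spread in every group. That test does not cover near-identical arrays or groups of unequal spread. Promoter sequences were found for 8 of the 10 genes, not for Retnlb and Nos2.

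The genes, lists and comparisons were chosen with earlier results of these data known. Named besides the 10 genes are the 2 genes most like each (for Retnlb, 1 of these is not reported here), the 3 genes of each pathway list with the largest control difference, and marker genes of each list. Alternatives were other normalizations, background corrections, filters, thresholds and variance models, slide and replicate blocks, and arrays left out.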

Additional observations from a re-analysis of the deposited data

How the results depend on the processing

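The count of the 10 genes called was 0 in all 5 comparisons and stayed 0 in every alternative except array weights, which gave 4 between the controls (552 probes called in all), namely Nos2 (-2.16), Retnlb (4.39), Saa1 (-0.84) and Saa2 (-0.84). With single arrays left out it was 0 throughout. The difference between the controls changed sign for Reg3g with the slide as a fixed block (-0.90) and without the 3 arrays high in liver transcripts (-0.010). For PCN in WT, Ang4 turned to -0.43 without the 4 near-identical arrays and without WT PCN replicates 3 and 4, and Duoxa2 turned to 0.044 without the wash bath term, 0.087 with the slide as a fixed block, 0.30 in each fit without near-identical arrays and 0.23 without the 4 arrays high in pancreatic transcripts. For PCN in Pxr-/-, Nos2 turned to 0.041 without the bath term, 0.032 with the slide as a random block, 0.14 with array weights and 0.062 without the arrays high in pancreatic transcripts. Single arrays left out gave -0.51 to 2.05 for Reg3g between the controls (lowest without WT CONT replicate 3, highest without WT CONT replicate 4), -0.44 to 0.057 for Duoxa2 under PCN in WT, and for PCN in Pxr-/- -1.15 to 2.88 for Reg3b, -0.56 to 2.14 for Reg3g (each lowest without Pxr-/- PCN replicate 4) and -0.16 to 0.12 for Nos2. The cause was not tested.

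With a replicate block, 0 of the 10 genes were called in each comparison, and Duoxa2 was 0.044 for PCN in WT and Nos2 0.0056 for PCN in Pxr-/-. The replicate numbers do not pair the arrays, since 11 of 22 same-numbered pairs had a correlation of deviations over 0.1 (range -0.334 to 0.493). For genes at low signal, Reg3b above all, a value near the background sets only the lower end of the range.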
